A study of Mus musculus with 6 samples.

Results

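The 9 genes described here encode synaptic adhesion proteins: the neurexins Nrxn2 and Nrxn3, the neuroligins Nlgn1, Nlgn2 and Nlgn3, and the leucine-rich repeat transmembrane proteins Lrrtm1, Lrrtm2, Lrrtm3 and Lrrtm4. They were taken by gene symbol from a table of 24532 genes, and all 9 passed the filter on low counts. The study sequenced bulk mRNA of the nucleus accumbens core, a reward-related region of ventral striatum, in wild-type male mice that the labels call adolescent (postnatal days 35 to 55). Sample titles gave 3 control and 3 ethanol libraries, while the treatment field named ethanol exposure for all 6, so the groups rest on the titles. Mice underwent contextual fear conditioning and later extinction trials, and the ethanol schedule between them comprised 6 intraperitoneal injections of 20% v/v ethanol within 6 h, the first of 1.8 g/kg and the other 5 of 1.2 g/kg. What the control mice received was not given. The 27 days of every-other-day drinking that followed, with tissue taken 24 h after their end, are described for the mice without a distinction of groups. These 27 days are longer than the span from postnatal day 35 to 55. The stated age need therefore not be the age at tissue collection. Whether the 3 libraries of a group stem from different animals was not stated, and a p-value then reflects library spread alone, which may be technical. Values of a group are given in the order of libraries 1, 2 and 3.

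Neurexins are presynaptic adhesion proteins made from several start sites. The long alpha forms begin upstream, and the short beta forms begin at a start site inside the gene. Neuroligins and LRRTMs sit in the postsynaptic membrane and bind neurexins across the cleft. Neuroligin 1 is known from excitatory synapses, neuroligin 2 from inhibitory synapses and neuroligin 3 from both, and LRRTMs are known from excitatory synapses.

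The deposited table lists 3 RefSeq transcripts of Nrxn3, each with its own start on the plus strand of chromosome 12 (mm10). The 250 bases before each start are shown because the Nrxn3 transcripts differed more between libraries than the gene total did. The 250 bases before the upstream start of Lrrtm4 follow, since Lrrtm4 is the gene whose groups stayed apart in each unit examined. Sequences are from RefSeq (GRCm38.p6), run 5′ to 3′ on the gene strand and end at the base before the start. Capitals mark each CG, and in the Lrrtm4 window also TTTATA.
Nrxn3 variant 1, chr12:88794254-88794503, plus strand: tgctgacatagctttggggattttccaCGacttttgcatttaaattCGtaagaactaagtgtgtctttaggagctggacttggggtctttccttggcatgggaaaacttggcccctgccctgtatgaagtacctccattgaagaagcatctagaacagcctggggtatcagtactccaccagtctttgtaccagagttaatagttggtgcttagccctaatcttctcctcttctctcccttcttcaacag
Nrxn3 variant 2, chr12:88953140-88953389, plus strand: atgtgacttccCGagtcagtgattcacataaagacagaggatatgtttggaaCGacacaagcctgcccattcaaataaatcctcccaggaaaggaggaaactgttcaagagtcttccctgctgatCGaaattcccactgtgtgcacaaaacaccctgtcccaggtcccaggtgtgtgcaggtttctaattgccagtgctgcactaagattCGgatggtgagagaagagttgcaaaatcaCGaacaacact
Nrxn3 variant 3, chr12:89812233-89812482, plus strand: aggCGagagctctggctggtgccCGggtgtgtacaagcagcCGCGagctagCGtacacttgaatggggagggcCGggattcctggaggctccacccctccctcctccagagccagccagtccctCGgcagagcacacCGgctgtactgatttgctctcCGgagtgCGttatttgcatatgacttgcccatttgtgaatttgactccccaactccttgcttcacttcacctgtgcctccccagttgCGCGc
Lrrtm4 variants 2 and 3, chr6:80018627-80018876, plus strand: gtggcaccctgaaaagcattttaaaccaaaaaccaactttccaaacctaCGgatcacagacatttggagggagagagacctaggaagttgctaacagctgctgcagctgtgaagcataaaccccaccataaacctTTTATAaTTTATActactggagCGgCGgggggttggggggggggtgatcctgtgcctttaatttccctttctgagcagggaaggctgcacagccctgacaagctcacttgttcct

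The window before Nrxn3 variant 3, the beta form, held 12 CG dinucleotides, against 5 for variant 2 and 2 for variant 1, where the median of 32851 RefSeq windows of 250 bases was 6. The window before variant 1 ended in AG, as did 6.07% of all windows. In GENCODE M21, 6 Nrxn3 transcripts had an exon beginning at this base, and it was the first exon in 1 of them. GENCODE also placed the start of the gene 71628 bases further upstream. The window before variant 1 need therefore not be a promoter. In the Lrrtm4 window TTTATA, the reverse complement of TATAAA, occurred 2 times, beginning 115 and 108 bases before the start. TATAAA on either strand was in 1 of 10 windows of 6 of the genes (Lrrtm1, Lrrtm3, Lrrtm4, Nlgn1, Nlgn2 and Nrxn3) and in 12.37% of all windows. The motif TGACGTCA was in 0 of these 10 windows and in 1.55% of all.

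Depth was 35898026 to 67399599 estimated reads per library, and levels are given as CPM, the reads of a gene relative to the scaled library total. Before scaling, 3 reads stood for 0.0445 to 0.0836 CPM, a limit that covers counting error only. Ethanol 1 was the deepest library. Control 2 had the fewest genes with reads, 15924 against 17096 to 17707 in the others, and stood farthest out on the first principal component. Markers of striatal projection neurons were present in every library, with a summed level of 1552 to 1847 CPM in control and 1497 to 3388 CPM in ethanol. Ethanol 2 held the highest value, and 8 of 8 markers had reads in each library. Pan-neuronal markers summed to 4037 to 4245 CPM in control and 3806 to 4267 CPM in ethanol. This sum covered opposite directions, with 1 positive and 4 negative log2 fold changes. Of the 5 markers, groups did not overlap in 1 with ethanol above and 1 with ethanol below, against 9.35% and 8.41% of all genes. For 6 markers of cortical glutamatergic neurons, Slc17a7 among them, the sum was 73.5 to 331 CPM in control and 18.5 to 71.7 CPM in ethanol, so the groups did not overlap, and Emx1 was at 0 in control 2. The summed level of 6 astrocyte markers was 1616 to 1979 and 1839 to 2404 CPM, that of 6 oligodendrocyte markers 18769 to 22130 and 15586 to 20074 CPM, and that of 6 microglial markers 263 to 335 and 282 to 416 CPM. Choroid plexus markers summed to 413 CPM in control 3, of which Ttr made up 394 CPM, and to 12.4 to 19.8 CPM in the other 5 libraries. Folr1 was at 0 in control 2 and Kcnj13 at 0 in ethanol 2 and ethanol 3. The part of these cell types in the results below was not tested, and in bulk tissue fewer cells of a type and less RNA per cell cannot be told apart.

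Transcript level per length was compared between genes in FPKM, a fragment count scaled by transcript length and library size, summed over the transcripts of a gene. Nlgn2, the inhibitory-synapse neuroligin, and Nrxn2 had the highest levels, with medians over the 6 libraries of 45.8 and 43.9 FPKM. Their order was not settled, since Nlgn2 was above Nrxn2 in 3 of 6 libraries. Lrrtm1 followed at 24.1 FPKM and Nrxn3 at 17.7 FPKM. Lrrtm1 was above Nrxn3 in 6 of 6 libraries, though their ranges over libraries overlapped. Nlgn3 and Lrrtm3 had 9.21 and 8.85 FPKM, with Nlgn3 above in 5 of 6 libraries and overlapping ranges. Lrrtm4 had 6.36, Lrrtm2 5.01 and Nlgn1, the excitatory-synapse neuroligin, 3.75 FPKM, and these neighbours also overlapped.

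Within the neuroligins, Nlgn2 made up 77.6% to 80.5% of the summed FPKM in control and 70.3% to 78.8% in ethanol. Nlgn3 made up 14.3% to 15.8% in control, and 23.2%, 14.4% and 20.1% in ethanol. The neuroligin mix of ethanol 2 thus lay near that of the control libraries, while ethanol 1 and ethanol 3 held more Nlgn3. Within the LRRTMs, Lrrtm1 took the largest share in each library, at 47.9% to 62.5% in control and 54.4% to 58.1% in ethanol. Lrrtm2 took 11.5% to 13.0% in control, 7.10% and 6.97% in ethanol 1 and ethanol 2, and 12.8% in ethanol 3.

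The ethanol and control libraries were then compared gene by gene in CPM of the scaled libraries, with edgeR's quasi-likelihood test and Benjamini-Hochberg adjustment over 15774 genes. None of the 9 genes passed the threshold of 0.05 on the adjusted p in either direction, where 0% of all tested genes were called higher and 0% lower. At an unadjusted p under 0.05, 2 of the 9 were higher (Nlgn1 and Lrrtm4) and 0 lower, against 5.31% and 5.34% of all genes. DESeq2 and limma-voom also called 0 of the 9, where DESeq2 called 0.323% of all genes higher and 0.59% lower, and limma-voom 0% in each direction. In the log2 fold change of edgeR, 8 of 9 had a positive value, where 52.7% of all genes did, and the median was 0.25 against 0.02 over all genes. By group means of the deposited FPKM the count was 6 of 9, with Nrxn3 and Nlgn2 on the other side. The share of all genes was not taken in FPKM, which lack the scaling used for CPM, so 52.7% is no background for it. With total counts as the only scaling, the median over all genes was -0.06, and 8 of 9 were positive, with Nlgn2 at 0.0054. In CPM of the scaled libraries, ethanol 2 was the lowest ethanol library for each of the 9. Their fold changes are therefore not 9 separate observations. Values of the groups did not overlap, with ethanol above, in 2 of 9 genes (Lrrtm3 and Lrrtm4), against 9.35% of all genes, and with ethanol below in 0 of 9, against 8.41%. With total counts as the only scaling, or in FPKM, this held for 1 of the 9, Lrrtm4. The shares of all genes were taken in CPM of the scaled libraries only, so that count has no background beside it.

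**Figure D1:**
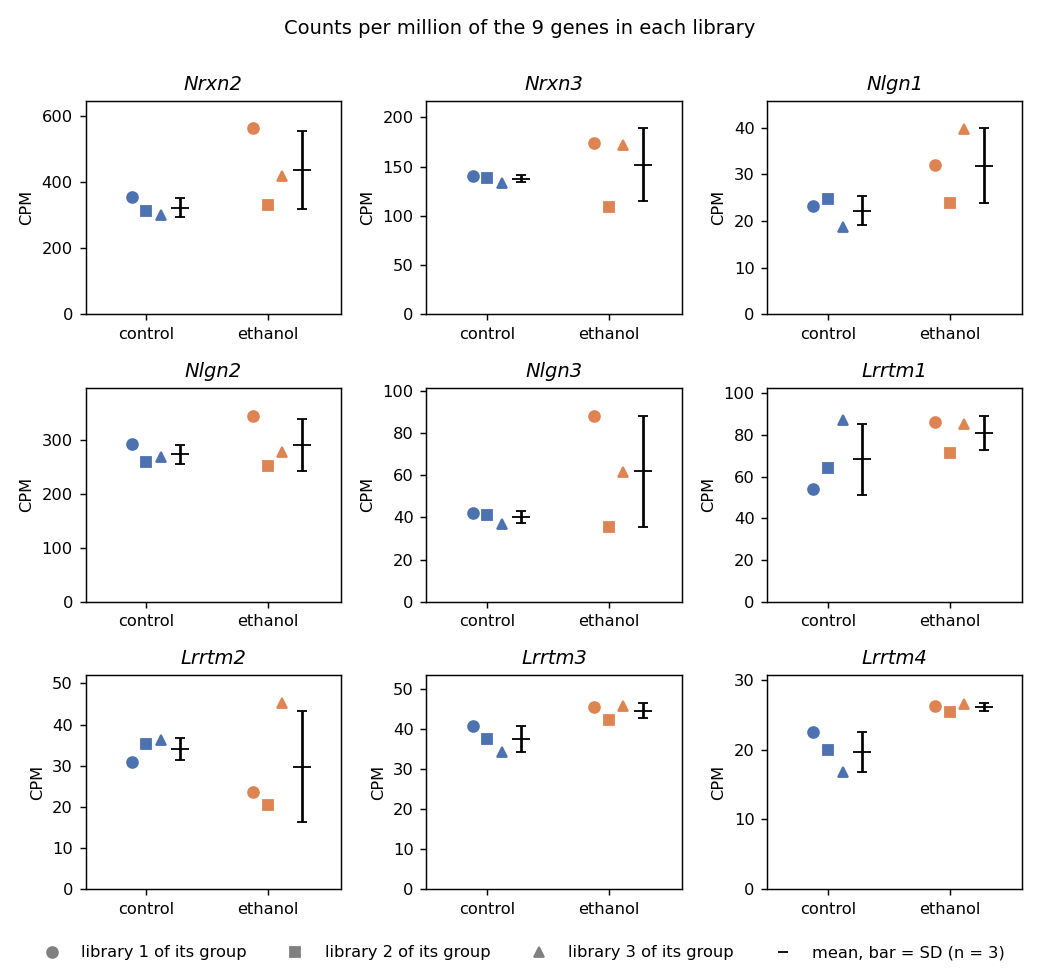
CPM (vertical axis from 0) of each gene in the 3 control and 3 ethanol libraries, with marker shape giving the library number within its group and bars the mean and SD (n = 3). Ethanol 2 (orange squares) is the lowest ethanol library for each of the 9 genes. All 3 ethanol values of Lrrtm4 (25.4 to 26.5 CPM) still lie above its control values (16.7 to 22.5 CPM).

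Of the neurexins, Nrxn2 (chromosome 19, 6418738 to 6533217, plus strand) stood at 354, 312 and 299 CPM in control and at 561, 329 and 416 CPM in ethanol. Ethanol 1 was the highest library, and ethanol 2 lay inside the control range. Group means were 322 ± 28.8 and 436 ± 117 CPM (SD, n = 3 each). The log2 fold change was 0.44 (SE 0.21, edgeR adjusted p = 0.478). Without ethanol 1 the log2 fold change was 0.21.

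Nrxn3 (chromosome 12, 88794504 to 90334933, plus strand) stood at 140, 139 and 133 CPM in control and at 174, 109 and 172 CPM in ethanol. Control libraries lay close together, with ethanol 1 and ethanol 3 above them and ethanol 2 below. The log2 fold change was 0.14 (SE 0.20, edgeR adjusted p = 0.817), and ranged from 0.03 without ethanol 1 to 0.32 without ethanol 2. Per length the direction of the means was the opposite, with 17.9 ± 2.32 FPKM in control and 16.6 ± 4.11 FPKM in ethanol (SD, n = 3 each). Groups overlapped in FPKM, with control 2 the highest library, at 20.4 FPKM, and ethanol 2 the lowest. Control 1 and control 3, at 17.4 and 15.8 FPKM, lay below ethanol 1 and ethanol 3, at 17.9 and 19.9 FPKM. The direction in FPKM was therefore not settled.

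Reads of Nrxn3 were divided unlike between libraries among its 3 transcripts. Variant 1, of 7920 bases, took 37.4%, 6.97% and 51.8% of the gene's FPKM in control and 70.5%, 53.6% and 57.2% in ethanol. Variant 2, of 6516 bases, took 50.1%, 39.3% and 40.6% in control and 19.0%, 38.8% and 32.9% in ethanol. The groups did not overlap in either share, though control 3 and ethanol 2 lay close for variant 1, as did control 2 and ethanol 2 for variant 2. Variant 3, the beta form of 5144 bases whose window is shown above, took 53.7% in control 2 and 7.60% to 12.6% in the other 5 libraries.

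The mean share of variant 1 was 28.4 percentage points higher in ethanol and that of variant 2 was 13.1 points lower. Each had an exact permutation p of 0.1, two-sided, the smallest that 3 against 3 libraries allow, and 0.4 after Benjamini-Hochberg adjustment over 12 shares. Without control 2 the variant 1 difference was 15.9 points, without ethanol 1 the variant 2 difference was -7.49 points, and the variant 3 difference of -15.3 points became -0.76 without control 2. The 3 shares of a gene sum to the whole, so they are not independent. Control 2 also lacked reads of other transcripts, as given for Nlgn1 and Lrrtm4. Weighted by FPKM, the mean length of a Nrxn3 transcript was 5877 bases in control 2, 6868 and 7139 bases in control 1 and control 3, and 7165 to 7361 bases in ethanol.

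**Figure D2:**
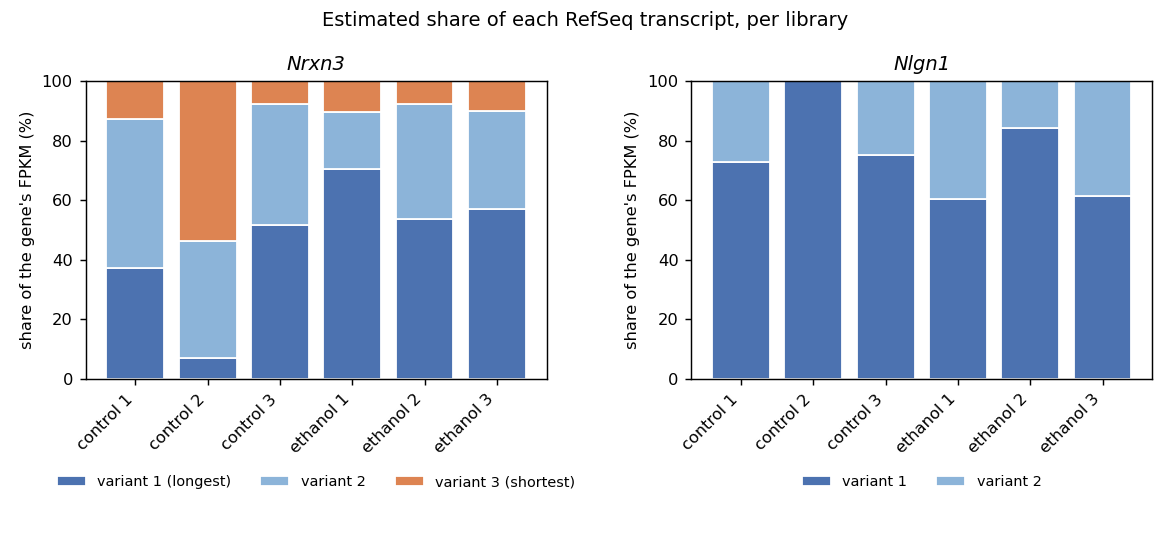
Share of each RefSeq transcript in the summed FPKM of Nrxn3 and Nlgn1 (vertical axis, percent), with 1 stacked bar per library. Control 2 stands apart, with 53.7% of Nrxn3 in variant 3 and 0% of Nlgn1 in variant 2, and Nrxn3 variant 1 takes 53.6% to 70.5% in the ethanol libraries.

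Tested as transcripts, 0 of the 17 transcripts of the 9 genes passed in edgeR over 22527 transcripts, where 0% of all did, and 0 of 17 had an unadjusted p under 0.05, against 6.55% of all. Nrxn3 variants 1, 2 and 3 had log2 fold changes of 1.04 (SE 0.66), -0.55 (SE 0.24) and -1.45 (SE 0.88), the last of which was 0.02 without control 2. The biological coefficient of variation was 0.73 for transcripts and 0.252 for genes. At the transcript spread, a p that misses the threshold says little about the transcripts. Nrxn2 showed a steadier mix, with its longest transcript, variant 1, at 69.9% to 76.8% of FPKM in control and 64.4% to 74.3% in ethanol. Of all transcripts of tested genes with 2 or more, 10.5% had shares that did not overlap between groups, on either side. Among the 12 shares of these genes it was 3, namely Nrxn3 variants 1 and 2 and Lrrtm4 variant 1.

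Of the neuroligins, Nlgn1 (chromosome 3, 25431841 to 26331909, minus strand) stood at 23.2, 24.7 and 18.7 CPM in control and at 32.1, 23.8 and 39.8 CPM in ethanol. Ethanol 1 and ethanol 3 lay above each control library and ethanol 2 lay among them. The log2 fold change was 0.52 (SE 0.21, edgeR adjusted p = 0.45), and it was 0.34 without ethanol 3. Variant 2, which starts downstream of variant 1, took 27.3%, 0% and 24.7% of FPKM in control and 39.7%, 15.8% and 38.5% in ethanol. Its 0 reads in control 2 are below 3 reads, or 0.0806 CPM, and the exact permutation p of its share was 0.3 (0.6 after Benjamini-Hochberg adjustment).

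Nlgn2 (chromosome 11, 69823123 to 69834849, minus strand) stood at 293, 259 and 268 CPM in control and at 345, 252 and 278 CPM in ethanol. Its groups overlapped throughout. The log2 fold change was 0.09 (SE 0.17, edgeR adjusted p = 0.864), and -0.046 when ethanol 1 was left out. In FPKM the means were 46.8 ± 2.92 and 46.1 ± 6.30 (SD, n = 3 each).

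Nlgn3 (chromosome X, 101299179 to 101321350, plus strand) stood at 42.2, 41.1 and 37.0 CPM in control and at 88.3, 35.7 and 61.7 CPM in ethanol. It varied most of the 9 genes, 2.48-fold between its highest and lowest library, with ethanol 1 highest and ethanol 2 lowest of all 6. The log2 fold change was 0.63 (SE 0.28, edgeR adjusted p = 0.472), 0.28 without ethanol 1 and 0.89 without ethanol 2. In the fit without ethanol 2 it passed (edgeR adjusted p = 0.0466), as the only one of the 9 genes, where 1.26% of all genes were called higher and 0.0628% lower. DESeq2 without ethanol 2 called 4 of the 9 higher (Nrxn2, Nrxn3, Nlgn1 and Nlgn3) and 0 lower, where 7.34% of all genes were called higher and 4.38% lower.

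Of the LRRTMs, Lrrtm1 (chromosome 6, 77242717 to 77245517, plus strand) stood at 54.0, 64.1 and 87.2 CPM in control and at 86.2, 71.3 and 85.2 CPM in ethanol. Control 3 was the highest of all 6 libraries, and the control spread exceeded that of ethanol. Lrrtm1 had a log2 fold change of 0.24 (SE 0.20, edgeR adjusted p = 0.672), which lay between 0.10 without control 1 and 0.45 without control 3.

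Lrrtm2 (chromosome 18, 35209006 to 35215024, minus strand) was the one gene with a negative log2 fold change, at 31.0, 35.2 and 36.1 CPM in control and 23.7, 20.3 and 45.2 CPM in ethanol. Ethanol 3 lay above each control library, whereas ethanol 1 and ethanol 2 lay below them all. For Lrrtm2 it came to -0.20 on the log2 scale (SE 0.28, edgeR adjusted p = 0.819), but -0.63 without ethanol 3 and 0.0032 without ethanol 2, so its direction rested on single libraries. With DESeq2 and without ethanol 3 it passed as lower (adjusted p = 0.0232), as 1 of the 9, where 1.39% of all genes were called higher and 4.18% lower.

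Lrrtm3 (chromosome 10, 63928497 to 64090255, minus strand) stood at 40.8, 37.5 and 34.4 CPM in control and at 45.7, 42.4 and 45.8 CPM in ethanol. All 3 ethanol values were above all 3 control values, a log2 fold change of 0.25 (SE 0.15, edgeR adjusted p = 0.562). With FPKM of 9.06, 8.39 and 7.55 in control and 8.99, 8.70 and 9.90 in ethanol the groups overlapped.

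Lrrtm4 (chromosome 6, 80018877 to 80810143, plus strand), which binds heparan sulfate proteoglycans as well as neurexins, stood at 22.5, 19.9 and 16.7 CPM in control and at 26.3, 25.4 and 26.5 CPM in ethanol. The ethanol libraries lay close together, and the groups were apart in CPM, in counts scaled by total only and in FPKM. Means were 19.7 ± 2.88 and 26.1 ± 0.59 CPM (SD, n = 3 each). Its log2 fold change was 0.40 (SE 0.17, edgeR adjusted p = 0.45) and lay between 0.30 without control 3 and 0.51 without control 1. Of its 4 transcripts, variant 3 took the largest share in 5 of 6 libraries, at 44.5% to 66.7% of FPKM in control and 38.6% to 70.3% in ethanol. Variant 1 was minor, at 3.93%, 0% and 3.65% in control and 4.39%, 8.57% and 4.49% in ethanol, without overlap (exact permutation p = 0.1, 0.4 after Benjamini-Hochberg adjustment). Control 1 and ethanol 1 lay close, and the share rested on 0 to 56 estimated reads in control and 48 to 101 in ethanol. Its mean was 3.29 points higher in ethanol, 2.03 points without control 2 and 1.92 points without ethanol 2.

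**Figure D3:**
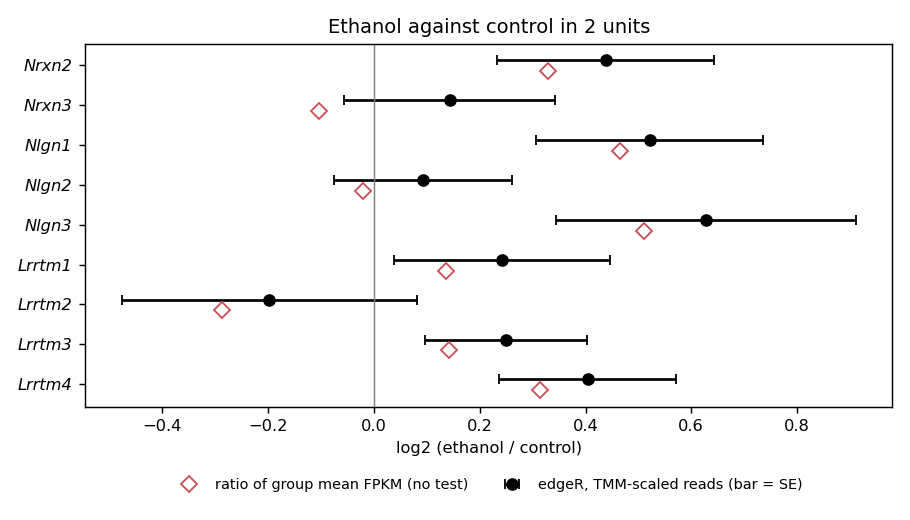
Log2 ratio of ethanol to control for the 9 genes (horizontal axis), as edgeR's fold change of scaled reads with its SE (filled circles) and as the ratio of group mean FPKM (open diamonds). Nrxn3 (0.14 and -0.10) and Nlgn2 (0.09 and -0.02) change side between the units, and Lrrtm2 is negative in both.

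Lrrtm1, Lrrtm2 and Lrrtm3 each lie inside an alpha-catenin gene on the other strand in GENCODE M21, Lrrtm1 in Ctnna2, Lrrtm2 in Ctnna1 and Lrrtm3 in Ctnna3. Exons of Lrrtm2 and Ctnna1 overlapped, those of the other nested genes did not. No source says if reads were assigned by strand. Ctnna2, the neuronal alpha-catenin, stood at 96.4, 99.7 and 95.9 CPM in control and 144, 104 and 137 CPM in ethanol (log2 fold change 0.40, SE 0.17, edgeR adjusted p = 0.459). Ctnna1 stood at 84.0, 92.99 and 86.4 CPM in control and 109, 93.03 and 102 CPM in ethanol, with a log2 fold change of 0.21. Ctnna3 was low, at 0.98 to 4.68 CPM in control and 0.75 to 2.53 CPM in ethanol, with a log2 fold change of -0.36, and 0.68 when control 2 was left out. Ctnna1 and Lrrtm2, which share exonic sequence, had fold changes of opposite sign, as did Ctnna3 and Lrrtm3, whose exons did not overlap. Ctnna2 and Lrrtm1 had fold changes of the same sign. The signs of Lrrtm2 and Ctnna3 turned when single libraries were left out. Whether nested genes shared reads was not tested. Transcripts annotated on the other strand over exons of Nrxn2, Nrxn3, Nlgn1 and Lrrtm4 could likewise share reads with them. Exons of Nlgn3 overlapped those of Gm21986 on the same strand, where assignment by strand would not separate the reads.

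Other genes of trans-synaptic adhesion were taken from 7 lists with 73 genes, all of them tested, and 0 passed in edgeR in either direction. At an unadjusted p under 0.05 there were 10 of the 73 in either direction, where 5.31% of all genes were higher and 5.34% lower. A positive log2 fold change was found in 50 of 73, with a median of 0.17 against 0.02 over all genes, and groups did not overlap in 7 with ethanol above and 2 with ethanol below. Those counts compare with 9.35% and 8.41% of all genes, so the first was near the background and the other under it.

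Of 13 neurexin ligands other than neuroligins and LRRTMs, 8 had positive values and the median was 0.16. Dag1, which encodes dystroglycan, stood at 71.5, 78.6 and 69.5 CPM in control and 143, 84.7 and 104 CPM in ethanol (log2 fold change 0.60, SE 0.21, edgeR adjusted p = 0.439). Its groups did not overlap, and without ethanol 1 the log2 fold change was 0.37. Nxph1, a secreted neurexophilin that binds alpha-neurexins, had a log2 fold change of 0.50 (SE 0.20).

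Of 10 postsynaptic partners and modulators of neuroligins, 7 had positive values, with a median of 0.12. Lhfpl4, which links GABA-A receptors to neuroligin 2, stood at 141, 131 and 127 CPM in control and 193, 183 and 169 CPM in ethanol (log2 fold change 0.45, SE 0.15, edgeR adjusted p = 0.439). The groups did not overlap, and here ethanol 2 lay with the other ethanol libraries. Mdga1, which binds neuroligins and blocks neurexin binding, had a log2 fold change of 0.51 (SE 0.24), and 0.27 without ethanol 1.

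Of 7 presynaptic cytoplasmic partners of neurexins, 4 had positive values and the median was 0.10. Lin7a, a PDZ scaffold protein, had a log2 fold change of -0.49 (SE 0.26), and -0.86 without ethanol 3. Apba2, a Munc18-interacting adaptor, had 0.37 (SE 0.20), and 0.20 without ethanol 1.

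The 3 proteases had a median of 0.0085, with Adam10, a membrane sheddase, at -0.13. The 3 splice regulators had a median of -0.017, with Khdrbs2 at 0.30 and Khdrbs3 at -0.03. Khdrbs proteins are known to regulate alternative splicing of neurexins, and Khdrbs3 stood at 72.7 to 77.3 CPM in control and 68.1 to 79.8 CPM in ethanol.

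Among 34 genes of other trans-synaptic adhesion pairs, 26 had positive values and the median was 0.25, the same to 2 decimals as that of the 9 genes. Ptprd, a receptor tyrosine phosphatase of presynaptic terminals, stood at 209, 253 and 259 CPM in control and 160, 124 and 201 CPM in ethanol (log2 fold change -0.57, SE 0.20, edgeR adjusted p = 0.439), without overlap. Tenm1, a teneurin, stood at 5.02, 3.38 and 2.93 CPM in control and 20.8, 1.51 and 26.2 CPM in ethanol, with a log2 fold change of 2.09 (SE 0.75, edgeR adjusted p = 0.439). Ethanol 2 was the lowest library for Tenm1 and the other ethanol libraries were the highest. Without ethanol 2, 3 of the 73 genes passed in edgeR as higher and 0 as lower, where 1.26% of all genes were called higher and 0.0628% lower. They were Tenm1 (log2 fold change 2.61, edgeR adjusted p = 0.00463), Tenm2 and Adgrl3, the last 2 named after their values were seen. DESeq2 without ethanol 2 called 22 of the 73 higher, Dag1, Ctnna2, Mdga1, Apba2, Lhfpl4, Nxph1 and Tenm1 among them, and 1 lower (Lin7b), against 7.34% and 4.38% of all genes. DESeq2 without ethanol 3 called Lhfpl4 higher and Ptprd, Lin7a and C1ql3 lower, against 1.39% and 4.18% of all genes. Lin7b and C1ql3 were also named after their values were seen.

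**Figure D4:**
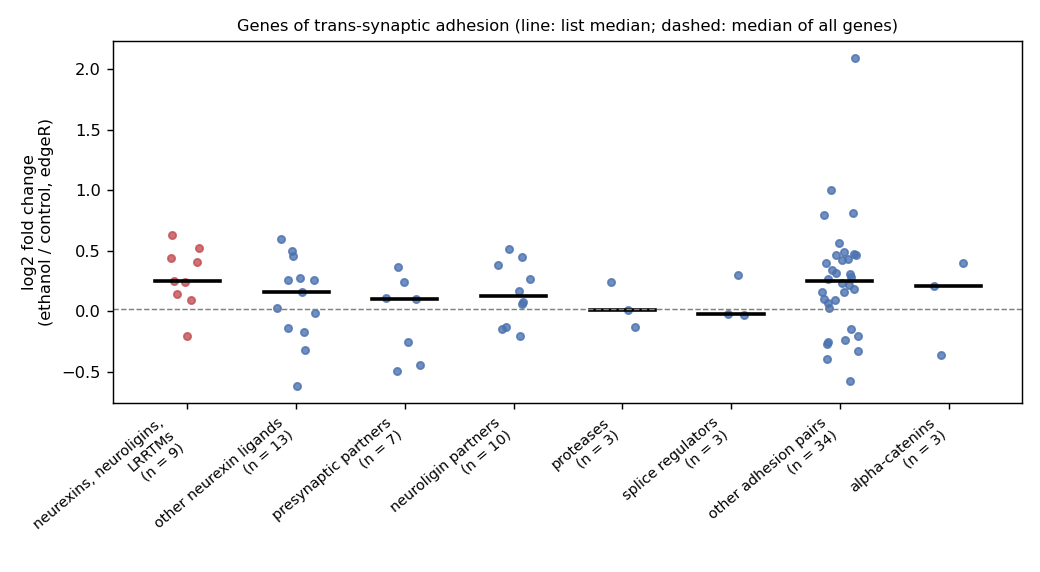
Log2 fold change of ethanol against control (vertical axis, edgeR) of each gene, by list, with the list median as a line and the median of all tested genes (0.02) dashed. The 9 genes (red) have a median of 0.25, as do the 34 genes of other adhesion pairs, and the splice regulators have a median of -0.017.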

How the data were processed

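Messenger RNA of 6 libraries was sequenced. The authors deposited 1 table of RefSeq transcripts with an estimated read count and an FPKM value per library, per the file headers. Build mm10 and the tool bcl2fastq are per the submitters' processing notes, and software for alignment and counting is not given in the sources used here. Counts as deposited are estimated counts, since in each library 99.9962% to 100% of them equalled FPKM, length and a library size multiplied and rounded up, within 0.05 reads. The split of reads between isoforms, or between genes with shared sequence, is therefore uncertain.

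The 36780 transcripts were summed to 24532 genes by identifier, with 10 identifiers of 2 symbols merged. Genes were kept by filterByExpr (minimum count 10), scaled by TMM and tested with edgeR 4.0.16 (glmQLFit, glmQLFTest, group only, two-sided) in R 4.3.3, with Benjamini-Hochberg adjustment over 15774 genes. CPM are TMM-scaled, and the SE is the log2 fold change over the square root of F. Transcript shares were compared by exact permutation tests. The edgeR test was tested on simulated counts, where it called most of the largest changes set in genes, few of the smallest and none in transcripts, so the gene test has little power at changes as small as those of the 9 genes, and the transcript test has little at any size tried. Alternatives were DESeq2 1.42.0, limma-voom 3.58.1 (also weighted by sample), scaling by totals or RLE, no low-count filter, a replicate block and leaving out each library. DESeq2 without each library and FPKM ratios were added after seeing the data. The members and lists were chosen with earlier results of these data known. Named genes were all 9 members, the 2 genes per list with the smallest unadjusted p, the 3 alpha-catenins and at most the 2 markers named first in a marker list, besides markers at 0. 1 gene that this rule names is not reported here. Endothelial, meningeal fibroblast and oligodendrocyte precursor markers summed to 98.0 to 119, 28.8 to 49.0 and 136 to 142 CPM in control and 104 to 117, 23.4 to 30.4 and 129 to 191 CPM in ethanol. Plots used matplotlib 3.10.9 (Python 3.11.15).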

Additional observations from a re-analysis of the deposited data

How the results depend on the processing

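The 9 log2 fold changes gave 171 tested values under the alternatives, of which 161 kept direction and side of the threshold, 6 newly passed it and 4 changed sign. Of 9 FPKM ratios, which have no test, 2 changed sign. DESeq2 on all libraries called 51 genes higher and 93 lower, but 0 of the 9. Leaving out single libraries, edgeR called 0 to 201 genes higher and 0 to 10 lower, 0 to 1 of the 9 higher, and 0 to 3 of the 73 other adhesion genes higher, each highest value being without ethanol 2. Leaving out controls 1, 2 and 3 and then ethanol 1, 2 and 3, DESeq2 called 14, 18, 5, 3, 1168 and 222 genes higher and 2, 66, 3, 3, 698 and 669 lower, with 4 of the 9 higher without ethanol 2 and 1 lower without ethanol 3. Of the 73, 22 passed as higher and 1 as lower in DESeq2 when ethanol 2 was left out, and 1 and 3 when ethanol 3 was. The cause was not tested. Leave-one-out ranges that crossed 0 were -0.046 to 0.18 for Nlgn2, -0.63 to 0.0032 for Lrrtm2, -0.34 to 0.0093 for Adam10, -0.72 to 0.68 for Ctnna3, -0.10 to 0.027 for Khdrbs3 and -1.92 to 0.0197 for Nrxn3 variant 3. For shares they were -10.0 to 5.84 points for Lrrtm4 variant 3, -4.28 to 10.9 for Lrrtm4 variant 4 and -1.19 to 1.45 for Nrxn2 variant 3. DESeq2 reversed the sign for Nlgn2 (-0.047 without ethanol 1), Lrrtm2 (0.0054 without ethanol 2), Adam10 (0.0061 without control 2, 0.0014 without ethanol 2), Ctnna3 (0.67 without control 2) and Khdrbs3 (0.028 without ethanol 1). Sample weights reversed Adam10 (0.043) and Ctnna3 (0.43), and FPKM ratios reversed Nrxn3 (-0.10) and Nlgn2 (-0.0201). With the replicate block 0 genes were called. Deviations of same-numbered libraries correlated at 0.146, -0.031 and -0.017, so the numbers were not taken to pair them. Leaving 1 library out changes both sample size and the estimated spread. Levels under 3 reads, 0.0445 to 0.0836 CPM by library, were below what depth could separate from 0.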
